A study of Mus musculus with 60 samples.

Results

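CD8+ donor T cells recovered from the liver on day 6 after hematopoietic cell transplantation (HCT) were compared with CD8+ T cells of the spleen by their T cell receptors. The comparison holds 18 of the 60 libraries of the series, chosen by tissue and cell type alone: 9 libraries of the TCR α chain (TCRA) and 9 of the TCR β chain (TCRB). In each chain there were 3 spleen libraries, labelled as taken before HCT, and 6 liver libraries, 2 for each donor genotype, which the labels number 1 and 2. The donors were C57BL/6 mice of 3 genotypes, WT, STAT3ko (Stat3 deleted by CD4-Cre, a driver active in the T lineage) and STAT3koPD-1ko (the same deletion in mice that also lack PD-1 in every cell). The liver libraries came from lethally irradiated WT BALB/c recipients that all received T cell–depleted bone marrow of WT C57BL/6 mice together with T cells of 1 of these genotypes. Lymphocytes of 3 recipients were pooled for a library, and donor cells were sorted as H-2Kb+TCRβ+CD8+. The labels give no age for these animals. A liver library is therefore a pool of recipients, a spleen library has no replicate within its genotype, and the α and β libraries were made from the same cells and are not independent. The question was how the CD8+ repertoire of the liver on day 6 differed from that of the spleen, and what became of the spleen's clonotypes.

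A T cell receptor chain is built by joining a variable (V) and a joining (J) segment, with a diversity (D) segment between them in the β chain. The joint forms CDR3, the loop that lies over the antigenic peptide, and nucleotides lost or added at the joint make most chains private to one clone. Chains that need few added nucleotides arise again and again in different mice and are called public. In graft-versus-host disease, donor CD8+ T cells that recognise host antigens divide and enter the liver, gut and skin.

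A clonotype is here defined by the amino acids of its CDR3 together with V and J, and its frequency is its share of the reads of a library. The tables list only clonotypes found in at least 2 libraries of a join of 18. These made up 96.6–99.1% of the reads of a TCRA library and 93.2–98.4% of a TCRB library, and all frequencies below are shares of this listed part. A spleen library listed 8501–10482 TCRA and 8949–11700 TCRB clonotypes, and a liver library 11502–16983 and 12413–20117. Read totals are not known, so a clonotype that is missing is said to be listed at 0. The gate held few T cells of invariant types: chains joining TRAV11 or TRAV11D to TRAJ18, as in invariant NKT cells, took 0.000589–0.109% of a TCRA library, and TRAV1 with TRAJ33, as in mucosal-associated invariant T cells, at most 0.062%. Clonotypes also listed in the CD4+ library of the same tissue, genotype and number held 6.98% ± 1.39 (SD, n = 3) of TCRB frequency in the spleen, 3.91% ± 0.831 (SD, n = 3) in liver number 1 and 6.05% ± 0.634 (SD, n = 3) in number 2. For CD4+ libraries of the other genotypes, these shares were 3.25% ± 0.45, 3.0% ± 0.252 and 4.22% ± 0.387. In TCRA the shares were 14.7% ± 0.657, 12.9% ± 1.24 and 14.97% ± 2.08 for the matching CD4+ library and 11.6% ± 0.756, 12.3% ± 0.77 and 14.3% ± 1.17 for the others, and both STAT3ko livers and STAT3koPD-1ko liver 2 shared more with the other genotypes. Whether CD4+ cells in the gate had a part in these shares was not tested.

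One property of the libraries bears on every comparison. The spleen libraries, although labelled as taken before HCT, shared most of their repertoire with liver library number 1 of the same genotype, whereas they shared with liver library number 2 about as much as with livers of other genotypes. The sources used here do not say whether a spleen library and a liver library came from the same donor animals, and the labels of the spleen libraries were not checked by any other measurement. The origin of these libraries is thus in doubt, and spleen stands throughout for the libraries labelled spleen. Several results are therefore given for numbers 1 and 2 apart, and the other liver values are over all 6 libraries.

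The leading clonotypes show both sides of these repertoires and are printed as the tables give their nucleotide sequence, 5′ to 3′, with the bases between the end of V and the start of J in capitals. Public TCRA chains that reached high frequency in all 9 libraries came first. They joined TRAV16N (chr14:53351028-53351621, plus strand, GRCm38) to TRAJ22 (chr14:54197248-54197307), and chains A and B have no base between the segments:
Chain A (TRAV16N, TRAJ22): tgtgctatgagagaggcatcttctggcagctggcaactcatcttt
Chain B (TRAV16N, TRAJ22): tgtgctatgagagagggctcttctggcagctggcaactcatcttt
Chain C (TRAV16N, TRAJ22): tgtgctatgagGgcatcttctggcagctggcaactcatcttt

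The most frequent TCRB clonotype of each spleen library, in the order WT, STAT3ko and STAT3koPD-1ko, was by contrast private to its genotype, and carried 11, 5 and 9 bases between V and J:
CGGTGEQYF (TRBV14, TRBJ2-7): tgtgGTGGGACTGGGgaacagtacttc
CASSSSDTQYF (TRBV29, TRBJ2-5): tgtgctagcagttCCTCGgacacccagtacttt
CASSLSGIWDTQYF (TRBV29, TRBJ2-5): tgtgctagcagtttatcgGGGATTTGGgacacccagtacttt

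A further set led single liver libraries, namely those of WT number 1, STAT3ko number 1, WT number 2 and STAT3ko number 2:
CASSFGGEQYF (TRBV29, TRBJ2-7): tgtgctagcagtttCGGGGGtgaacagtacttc
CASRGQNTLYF (TRBV29, TRBJ2-4): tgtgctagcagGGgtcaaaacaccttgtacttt
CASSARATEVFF (TRBV13-1, TRBJ1-1): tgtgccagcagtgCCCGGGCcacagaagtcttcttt
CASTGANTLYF (TRBV29, TRBJ2-4): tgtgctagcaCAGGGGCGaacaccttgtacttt

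The public chain A led 4 of the 9 TCRA libraries. It took 0.541%, 0.548% and 0.391% of the WT, STAT3ko and STAT3koPD-1ko spleen libraries. In liver number 1 of the same genotypes it took 0.298%, 0.432% and 0.284%, and in liver number 2 it took 0.688%, 0.468% and 0.277%. Liver and spleen overlapped for this chain, as they did for chain B, which ranged from 0.123% to 0.625% over the 9 libraries. Chain C ranged only from 0.112% to 0.256%. TRAV16N has near-identical copies elsewhere in the TRAV array (TRAV16 and TRAV16D), so its name stands for what the aligner chose among them. Another pair of TCRA chains that led a liver library were also in all 9. A chain of TRAV16N and TRAJ30 with no inserted base took 0.581% of WT liver 1 against 0.0317–0.205% of the other libraries, and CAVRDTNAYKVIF (TRAV7N-6, TRAJ30) took 0.513% of STAT3ko liver 2 against 0.0126–0.11%.

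The private leaders were seen in the spleen and in liver number 1 of the same genotype at a lower frequency. Each leader here was chosen as the most frequent of a library, so a lower frequency in others is given as a description. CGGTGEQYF took 0.826% of the WT spleen library and 0.138% of WT liver 1 and was listed at 0 in the other 7 libraries. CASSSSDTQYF took 0.455% of the STAT3ko spleen library, 0.0314% of STAT3ko liver 1 and 0.00618% of STAT3ko liver 2. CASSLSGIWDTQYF took 0.522% of the STAT3koPD-1ko spleen library and 0.0206% of liver 1 of that genotype. In TCRA, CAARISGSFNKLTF (TRAV14N-1, TRAJ4) took 0.854% of the WT spleen library, 0.000294% of the STAT3ko spleen library and 0.0951% of WT liver 1. Among the liver leaders, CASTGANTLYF took 0.666% of STAT3ko liver 2 and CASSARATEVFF took 0.332% of WT liver 2, and both were listed at 0 in all 3 spleen libraries and in every liver number 1 library. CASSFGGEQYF, listed in 7 of the 9 libraries, took 0.4% of WT liver 1, 0.14% of the WT spleen and 0.0474% of the STAT3koPD-1ko spleen. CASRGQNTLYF, listed in all 9, took 0.328% of STAT3ko liver 1, 0.0107% of the STAT3ko spleen and 0.0544% of the WT spleen. The top TCRB entry of both STAT3koPD-1ko liver libraries was a fragment, YAEQFF, assigned to TRBV21 and TRBJ2-1, which lacks the conserved first cysteine. It stood at 0.214–0.29% in all 9 libraries and was left out of the CDR3 measures below.

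In both chains, all 6 liver repertoires were flatter than that of the spleen of the same genotype. Clonotypes above 0.1% took 37.9%, 21.1% and 11.8% of TCRA frequency in the WT, STAT3ko and STAT3koPD-1ko spleen libraries, respectively. In liver number 1 they took 16.5%, 14.8% and 5.98%, and in liver number 2 they took 9.2%, 11.7% and 4.79%. Every liver library lay below the spleen library of its genotype, although WT liver 1 and STAT3ko liver 1 lay above the STAT3koPD-1ko spleen. The pattern was the same in TCRB. There, clonotypes above 0.1% took 36.2%, 21.5% and 10.5% of the spleen libraries, 13.7%, 11.6% and 1.82% of liver number 1, and 6.55%, 8.3% and 1.71% of liver number 2. In TCRB, 192 clonotypes of the WT spleen library passed 0.1%, compared with 89 and 46 in the WT livers. In the STAT3koPD-1ko livers only 14 and 12 did, against 68 in the spleen of that genotype.

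**Figure D1:**
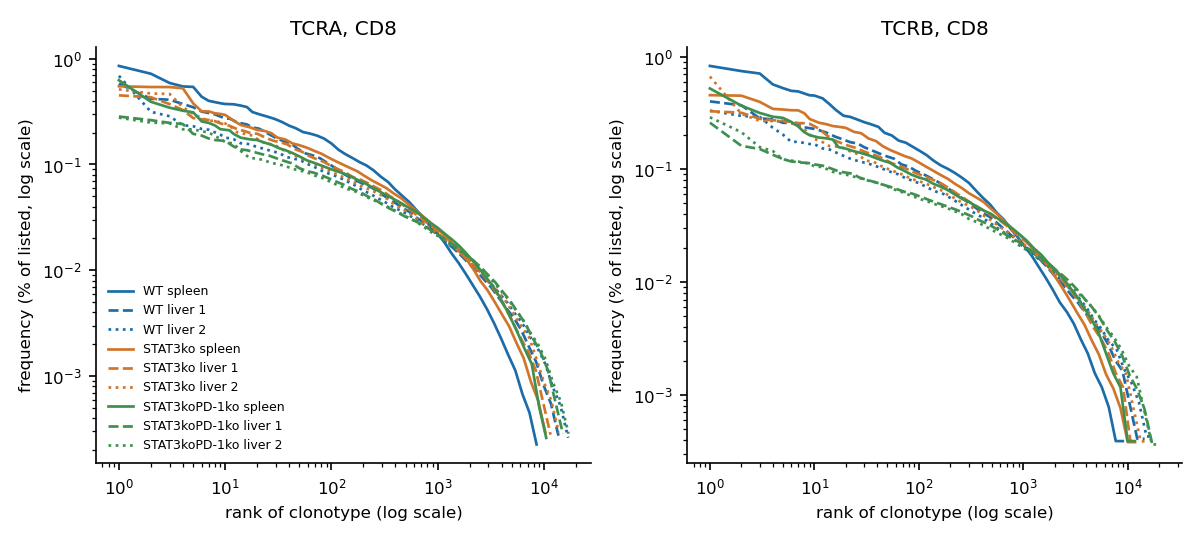
Frequency of clonotypes (percent of listed frequency, log scale) against their rank in a library (log scale), TCRA at left and TCRB at right; color gives the donor genotype, solid lines spleen, dashed lines liver 1 and dotted lines liver 2. At rank 100 the spleen lines lie above the liver lines of their color, and at rank 5000 below them. Of TCRA frequency, the 100 most frequent clonotypes held 14.2–25.3% of a spleen library and 10.2–16.9% of a liver library.

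The 100 most frequent clonotypes held 19.3% ± 5.61 (SD, n = 3) of TCRA frequency in the spleen and 13.4% ± 2.66 (SD, n = 6) in the liver. For TCRB these shares were 18.9% ± 6.00 and 11.3% ± 2.92. It took the 355–876 most frequent TCRA clonotypes to reach 50% of a spleen library and 832–1497 to reach it in a liver library, and in TCRB 364–967 and 940–1932. Shannon diversity was higher in the liver by 0.86 (TCRA) and 1.01 (TCRB) on the log2 scale, and all 6 liver libraries lay above all 3 spleen libraries in both chains. The liver libraries also listed more clonotypes, and with only the 5000 most frequent of each library, an alternative added after the data were seen, the difference was 0.41 and 0.48 (adjusted p = 0.0952, exact permutation). Of 10 measures (5 in each chain), all pointed to a flatter liver repertoire, and 9 had an unadjusted p under 0.05 in an exact two-sided permutation test over all 84 ways to label 3 of 9 libraries as spleen. None passed the correction over the 10 (adjusted p = 0.0529 for 9 and 0.0595 for the share of the 100 most frequent TCRA clonotypes, exact permutation). The call depended on processing: with frequencies as deposited all 10 passed, and with clonotypes of at least 2 genotypes 5 did. When tissue labels were permuted only within a genotype, a test added after the data were seen, all 10 had an adjusted p of 0.037 (exact permutation), the smallest that its 27 arrangements can give. The call also turned on single libraries. Without the STAT3koPD-1ko spleen library, the most diverse of the 3, all 10 passed at an adjusted p of 0.0357, the smallest this test can then give (exact permutation). Without the WT spleen library none did, and Shannon diversity had an adjusted p of 0.223 in both chains (exact permutation). Libraries of the same tissue also differed, and TCRA Shannon effective numbers ran from 1975 to 4009 over the spleen libraries and from 4031 to 6860 over the liver libraries.

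Liver number 2 had the higher Shannon diversity of the 2 liver libraries in every genotype and both chains. The effective number of TCRB clonotypes was 2044, 3297 and 4485 in the WT, STAT3ko and STAT3koPD-1ko spleen libraries. It was 4993, 4523 and 7735 in liver number 1, and 6796, 5762 and 8782 in liver number 2. In each genotype the order was spleen, liver 1, liver 2. Shannon diversity on the log2 scale was above the spleen mean by 0.72 (TCRA) and 0.84 (TCRB) in number 1 and by 1.01 and 1.17 in number 2. With 3 libraries against 3, an exact permutation test cannot go below p = 0.1, which each of the 4 reached. The 10 most frequent clonotypes did not follow this order. In TCRB they took 2.8%, 2.74% and 1.4% of liver number 1 of WT, STAT3ko and STAT3koPD-1ko and 2.22%, 2.9% and 1.5% of number 2, and in TCRA too their share was higher in number 2 for STAT3ko and STAT3koPD-1ko.

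V segment usage was close to the same in both tissues. In TCRA, TRAV16N took 26.2% ± 2.17 (SD, n = 3) of the spleen and 27.4% ± 0.807 (SD, n = 6) of the liver, followed by TRAV12N-3 at 6.69% and 7.24%. Among the 45 TRAV segments that averaged 0.5% or more of frequency, 1 passed in limma on log2(percent + 0.1) with donor genotype as covariate (2.22% of those tested), and 4 had an unadjusted p under 0.05. The segment was TRAV6-1 (chr14:52638515-52638962, plus strand), which took 1.5%, 0.778% and 0.979% of the WT, STAT3ko and STAT3koPD-1ko spleen libraries. In liver number 1 it took 0.617%, 0.626% and 0.736%, and in liver number 2 it took 0.772%, 0.516% and 0.555%. All 6 liver libraries lay below all 3 spleen libraries, and the limma log2 difference was −0.65 (SE 0.154, adjusted p = 0.0281). With library number as a block it was −0.60 (limma adjusted p = 0.0549). All spleen libraries are number 1, so this liver term is the difference of liver number 1 from the spleen. It is thus the same contrast as in the fit with 3 groups below and no separate check. In fits of the spleen with only 1 of the liver numbers TRAV6-1 passed, at −0.60 with number 1 and −0.70 with number 2 (limma adjusted p = 0.0403 and 0.0367). With each clonotype counted once instead of by frequency it was −0.01 (limma adjusted p = 0.986), and did not pass. The call was also absent without the filter on usage, without genotype in the fit and with clonotypes of at least 2 genotypes. It was also lost without any 1 of 4 libraries: the WT spleen, where it was −0.47, the STAT3koPD-1ko spleen (−0.71), WT liver 1 (−0.58) and STAT3koPD-1ko liver 2 (−0.61), with limma adjusted p-values of 0.814, 0.21, 0.0616 and 0.168. Liver number 2 differed from the spleen by −0.70 (adjusted p = 0.00763) and number 1 by −0.60 (adjusted p = 0.0549) in the limma fit with 3 groups, and the numbers differed from each other by −0.10 (adjusted p = 0.905). The other segments of lowest p were TRAV9-2, TRAV2 and TRAV7D-3, at log2 differences of −0.42, −0.33 and −0.38, each with an adjusted p of 0.514 in limma. They did not pass, but without the STAT3ko spleen library TRAV9-2 did, at −0.61 (limma adjusted p = 0.0358). That fit gave TRAV9-2 and TRAV6-1 the same SE (0.19), from a spread common to the segments and not their own.

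TRBV29 led the β chain at 23.5% ± 1.74 (SD, n = 3) of the spleen and 20.9% ± 1.25 (SD, n = 6) of the liver, followed by TRBV13-1. None of 18 TRBV segments passed in limma (0% of those tested), and 3 had an unadjusted p under 0.05. These were TRBV13-1 (chr6:41116007-41116468) at a log2 difference of 0.31, TRBV20 (chr6:41188273-41188977) at −0.40 and TRBV29 (chr6:41271394-41271881) at −0.17, all with an adjusted p of 0.21. TRBV13-1 took 7.42%, 11.6% and 10% of the spleen libraries of WT, STAT3ko and STAT3koPD-1ko. It took 11.2%, 12.2% and 12% of liver number 1 and 12.6%, 11.9% and 11% of liver number 2, and was above the spleen of its genotype in all 6 livers. Leaving out the STAT3ko spleen library, which of the 3 had the highest TRBV13-1 and the lowest TRBV20, brought both past the threshold in limma (adjusted p = 0.0021 and 2.18e-07). That fit gave both the same SE (0.112), from a spread common to the segments. These p-values therefore do not reflect the spread of either segment on its own. TRBV13-2, the fourth by p, had a log2 difference of −0.19 (limma adjusted p = 0.324). The 95% interval of each of the 45 TRAV and 18 TRBV segments lay within ±1 on the log2(percent + 0.1) scale, which understates the change of segments of low usage.

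TRBV26, TRBV12-1, TRBV12-2, TRBV15 and TRBV16 encode β chains that bind superantigens of endogenous mouse mammary tumor viruses, which BALB/c mice carry and which delete such T cells in the thymus. Together they took 21.7%, 21.2% and 20.6% of the WT, STAT3ko and STAT3koPD-1ko spleen libraries. In liver number 1 they took 23.7%, 22% and 19.6%, and in liver number 2 they took 21.3%, 20.8% and 20.3%, so the tissues overlapped. None of the 5 passed in limma. Their log2 differences ran from −0.10 for TRBV15 and TRBV26 to 0.09 for TRBV12-2, with a median of −0.04 beside 0.00277 over all 18 segments. When each clonotype was counted once instead of by frequency, TRBV26 alone of the 18 passed, at a log2 difference of 0.30 (limma adjusted p = 0.0169). The 3 segments of the TRBV13 family together took 22.4% ± 1.37 (SD, n = 3) of the spleen and 23.8% ± 0.777 (SD, n = 6) of the liver, and were above the spleen of the same genotype in all 6 livers. Their log2 differences were −0.19, 0.01 and 0.31.

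**Figure D2:**
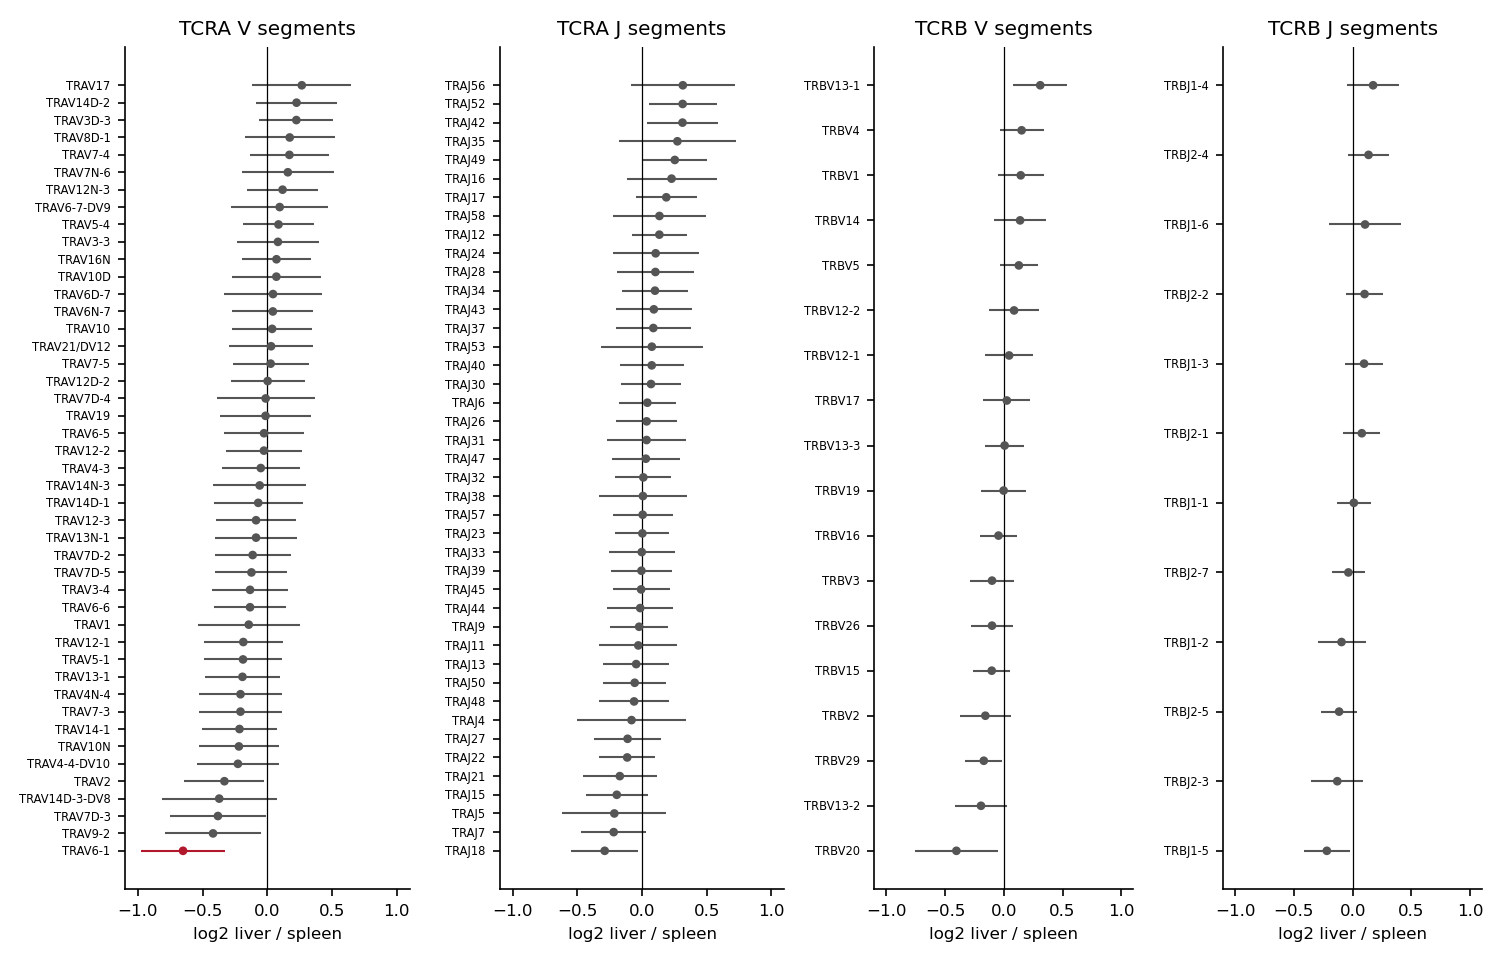
Log2 difference in usage between 6 liver and 3 spleen libraries for each V and J segment averaging 0.5% or more; points are limma estimates on log2(percent + 0.1) with donor genotype as covariate and bars are 95% intervals. TRAV6-1, in red at the foot of the TRAV panel, was the only segment with an adjusted p below 0.05.

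No J segment passed in either chain (0% of 42 TRAJ and 0% of 12 TRBJ segments), with 4 and 1 at an unadjusted p under 0.05 in limma. TRAJ52 (chr14:54165316-54165381) took 1.13% ± 0.314 (SD, n = 3) of the spleen and 1.4% ± 0.124 (SD, n = 6) of the liver, a log2 difference of 0.31. TRAJ42 was higher in all 6 livers than in the spleen of the same genotype, with a log2 difference of 0.31. TRAJ18, the segment of invariant NKT cells, was at −0.29 and TRAJ49 at 0.25. Their adjusted p was 0.445, and 0.475 for TRAJ49 (limma). In the TRAJ array, segments with high numbers lie nearest to the V segments and are used by early rearrangements of the locus, and those with low numbers by later ones. TRAJ39 to TRAJ58 together took 24.7% ± 2.66 (SD, n = 3) of the spleen and 26.2% ± 1.64 (SD, n = 6) of the liver and were higher in all 6 livers than in their own spleen, with a median log2 difference of 0.08 over 15 segments tested. TRAJ22 to TRAJ38 took 46.1% in either tissue, with a median of 0.04 over 14 segments, and TRAJ2 to TRAJ21 took 29.2% and 27.7%, with a median of −0.05 over 13 segments. The median over all 42 was 0.02, and none of these segments passed. The V segments nearest to the J array, TRAV17 to TRAV21, took 1.82% ± 0.175 (SD, n = 3) of the spleen and 1.95% ± 0.328 (SD, n = 6) of the liver, and none of the 3 that were tested passed, with a median log2 difference of 0.03 beside −0.05 over all 45 TRAV segments. TRBJ1-5 had the lowest p in the β chain (log2 difference −0.22, limma adjusted p = 0.38), with TRBJ1-4, TRBJ2-4 and TRBJ2-5 next at 0.17, 0.14 and −0.11 and the same adjusted p. The TRBJ1 cluster took 29.6% ± 0.874 of the spleen and 29.9% ± 1.43 of the liver, and TRBJ2 the rest. Of the 6 segments in each cluster none passed, and the medians were 0.05 and 0.02 beside 0.04 over all 12.

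No CDR3 feature passed between liver and spleen. Mean CDR3 length was 13.66 residues ± 0.0317 (SD, n = 3) in the spleen and 13.68 ± 0.0235 (SD, n = 6) in the liver for TCRA, and 13.49 ± 0.0123 and 13.5 ± 0.0266 for TCRB. In TCRB the 3 libraries of liver number 1 averaged 13.518 and lay above all 3 spleens (p = 0.1, the smallest possible, exact two-sided permutation), while those of number 2 averaged 13.485 and overlapped the spleens. CDR3 of at most 12 residues took 20.9% and 20.97% of TCRA and 25.8% and 25.7% of TCRB. Net charge was 0.619 and 0.621 in TCRA and −0.844 and −0.815 in TCRB, which was less negative in 5 of 6 livers than in any spleen library. A cysteine inside the loop was found in 0.116% ± 0.025 of TCRA frequency in the spleen, 0.112% ± 0.0228 in liver number 1 and 0.312% ± 0.2 in number 2, where STAT3ko stood at 0.538%. Without that library the liver minus spleen difference was 0.0305 percentage points in place of 0.0957. In TCRB such a cysteine was found in 2.89% of the spleen and 3.18% of the liver, and a pair of hydrophobic residues at positions 6 and 7, where a β chain tends to contact peptide, in 1.65% and 1.5% of TCRA and 1.04% and 1.2% of TCRB. Inserted nucleotides in TCRA averaged 1.99 ± 0.0400 in the spleen and 1.92 ± 0.0319 in the liver, with 5 of 6 livers below all spleen libraries. This had the lowest p of the 12 features (p = 0.0357, exact two-sided permutation), and no feature passed the correction (lowest adjusted p = 0.429, exact permutation). With each clonotype counted once, inserted nucleotides in TCRA were instead higher in the liver. In TCRB, inserted nucleotides averaged 2.84 in both tissues.

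Junctions went with how widely a clonotype was listed. The 744 TCRA clonotypes with a conventional CDR3 listed in all 9 libraries averaged 0.905 inserted nucleotides and 13.4 residues, and 56.5% of them had none inserted. The 26040 listed in a single library of the 9 averaged 3.4 inserted nucleotides and 13.9 residues, with 17.6% free of insertions. In TCRB the means were 1.54 nucleotides for 245 clonotypes of all 9 libraries and 3.42 for 42328 of 1 library. Clonotypes of all 9 libraries held 21.8% ± 1.78 (SD, n = 3) of TCRA frequency in the spleen and 20.9% ± 0.577 (SD, n = 6) in the liver, and 5.97% ± 0.477 and 5.38% ± 0.174 of TCRB. Those of 6 to 8 libraries held 22.6% ± 0.535 and 22.1% ± 1.45 of TCRA and 13.8% ± 0.685 and 12.2% ± 0.895 of TCRB. TCRB clonotypes of 3 to 5 libraries held 26.8% of the spleen, 26.2% of liver number 1 and 18.97% of number 2. At the other end, TCRB clonotypes listed in 1 of the 9 libraries held 7.74% of liver number 1 but 50.6% of liver number 2. Every listed clonotype is in at least 2 libraries of the join, so these were also found outside the 9. Liver number 1 shared most with a spleen library among the 9, so the contrast is not read as liver number 2 being more private.

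**Figure D3:**
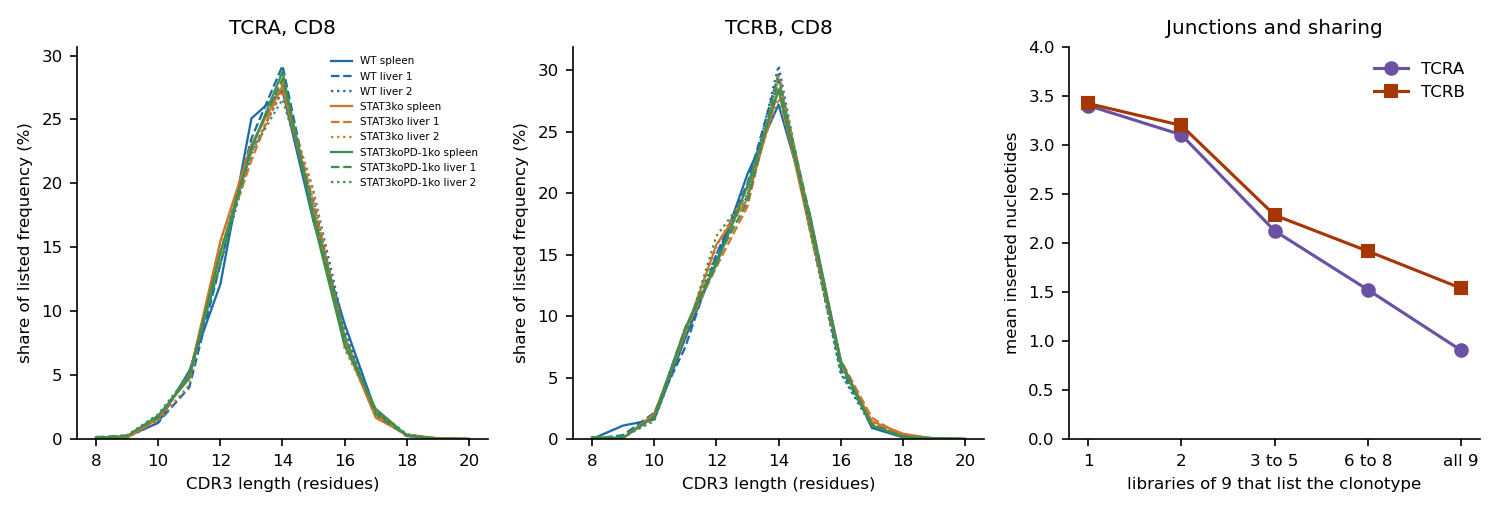
CDR3 length distribution of TCRA (left) and TCRB (middle) as percent of listed frequency, 1 line per library (color, donor genotype; solid, spleen; dashed, liver 1; dotted, liver 2), and mean inserted nucleotides of clonotypes by the number of libraries of 9 that list them (right). The length curves of the 9 libraries lie close together, and inserted nucleotides fall from 3.4 (TCRA) and 3.42 (TCRB) for clonotypes of 1 library to 0.905 and 1.54 for those of all 9.

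Spleen clonotypes were followed into the liver by asking how much of the spleen's listed frequency lay in clonotypes that a liver library also listed. For TCRB, 98.2% of the WT, 76.2% of the STAT3ko and 98.4% of the STAT3koPD-1ko spleen library was also listed in liver number 1 of the same genotype. In liver number 1 of the other genotypes the share was 22.8% ± 1.81 (SD, n = 6 pairs). In liver number 2 it was 26.9% ± 1.09 (SD, n = 3) for the same genotype and 26% ± 2.94 (SD, n = 6 pairs) for the others. TCRA, in which more chains are public, gave 98.3%, 80.9% and 98% for liver number 1 of the same genotype and 47.1% ± 2.65 for the others, compared with 50.5% ± 4.13 and 49.4% ± 2.56 for liver number 2. Same-genotype pairs of spleen and liver 1 thus stood 68.1 (TCRB) and 45.3 (TCRA) percentage points above pairs of different genotype, and for liver 2 the difference was 0.898 and 1.1 points. All 3 spleen libraries shared most with their own liver 1, and 3 genotypes allow 6 assignments, so that the exact one-sided permutation p was 0.17, the smallest possible. The small differences for liver 2 had the same p in this test. As a share of all reads of the spleen library, listed or not, 72.9–96.8% of TCRB and 78.9–97.4% of TCRA lay in clonotypes of liver 1 of the same genotype. The liver number 2 libraries listed as many clonotypes as number 1 or more (TCRB 15654–20117 against 12413–17037).

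**Figure D4:**
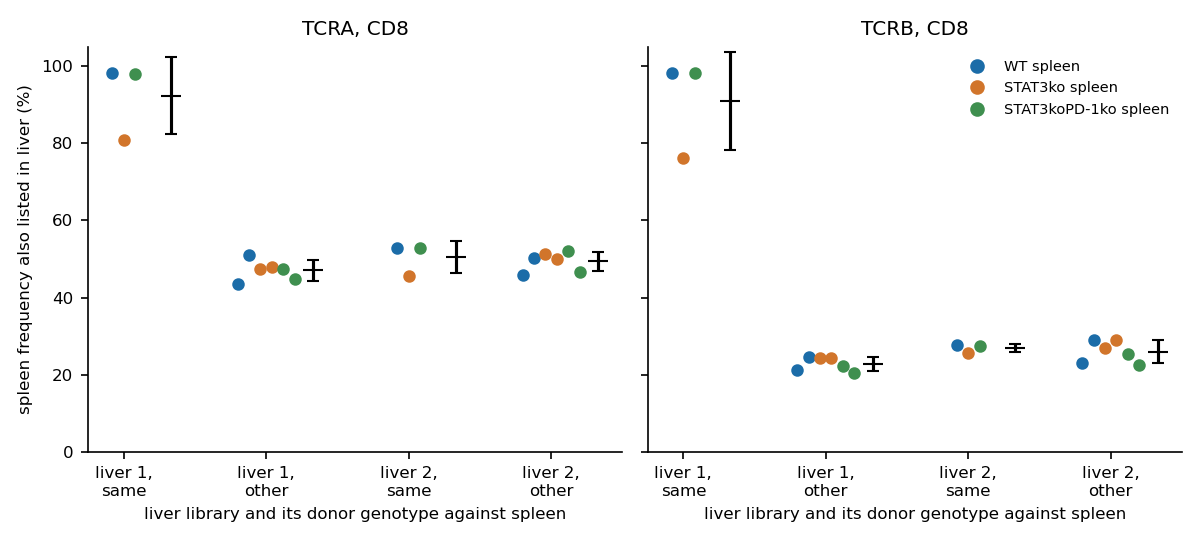
Percent of the listed frequency of a spleen library in clonotypes also listed in a liver library, for liver 1 and liver 2 of the same or another donor genotype, TCRA at left and TCRB at right; each point is a pair of libraries in the color of the spleen's genotype, and bars are mean ± SD. Pairs of the same genotype with liver 1 lie at 76.2–98.4% and all other pairs at 20.3–52.9%.

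The reverse direction gave the same picture. Clonotypes of the spleen library of the same genotype held 85.6% ± 1.44 (SD, n = 3) of TCRB frequency in liver 1 and 18.8% ± 1.4 in liver 2, and clonotypes of other genotypes' spleens 18% ± 1.79 and 18.8% ± 1.25 (SD, n = 6 pairs). The 2 livers of a genotype shared about as much with each other as livers of different genotypes did: TCRB clonotypes of liver 2 held 25.5% ± 2.72 (SD, n = 3) of liver 1 of the same genotype and 25.1% ± 1.43 (SD, n = 6 pairs) of the others. The gut libraries of the same tables split in the same way. In gut number 1 of the same genotype, 83.7% ± 11 (SD, n = 3) of spleen TCRB frequency was listed, against 31.9% ± 1.19 (SD, n = 6 pairs) for other genotypes, and in gut number 2 it was 24.5% ± 1.66 against 25.1% ± 2.59.

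Frequent spleen clonotypes were found again most often. All 192 WT and all 68 STAT3koPD-1ko TCRB clonotypes above 0.1% of the spleen were listed in liver 1 of their genotype, as were 80.3% of the 132 of STAT3ko. Below 0.001%, 68.8%, 51% and 75.4% of the WT, STAT3ko and STAT3koPD-1ko clonotypes were listed. In liver 1 of other genotypes the shares were 24–37.5% above 0.1% and 12.2–16.8% below 0.001%. Liver 2 of the same genotype listed 31.2–42.6% and 15.4–20.8%. In TCRA, 98.6–100% of the clonotypes above 0.1% in WT and STAT3koPD-1ko and 85.8% in STAT3ko were listed in liver 1.

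**Figure D5:**
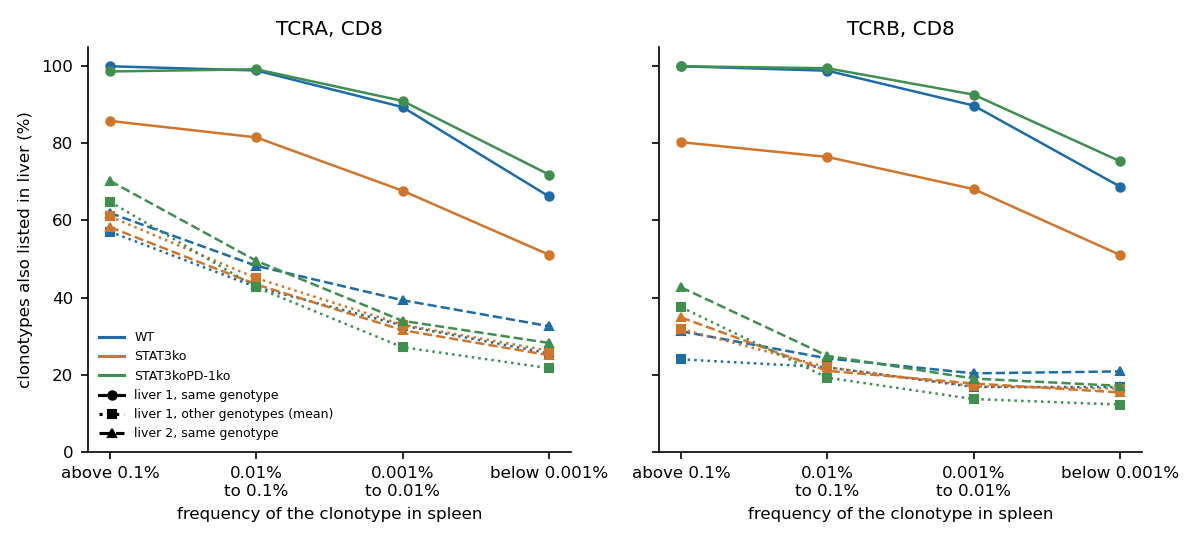
Percent of spleen clonotypes also listed in a liver library, by their frequency in the spleen, TCRA at left and TCRB at right; color gives the spleen's genotype, circles liver 1 of the same genotype, squares the mean over liver 1 of the other genotypes and triangles liver 2 of the same genotype. At each spleen frequency, every circle stands above all squares and triangles of its panel, and the circles fall to 51–75.4% (TCRB) below 0.001%.

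The STAT3ko spleen library stood apart. Of its frequency, 19.1% (TCRA) and 23.8% (TCRB) lay in clonotypes that STAT3ko liver 1 did not list, against 1.63–1.98% in WT and STAT3koPD-1ko. Most of this was listed in the gut of the same genotype, which held 16.9 of the 19.1 and 21.7 of the 23.8 percentage points. Gut 1 listed 92% (TCRA) and 90.1% (TCRB) of the STAT3ko spleen, more than liver 1 did, whereas in both other genotypes liver 1 listed more. It listed 98.3% and 98.2% of the WT spleen against 91.7% and 89.99% in gut 1, and 98% and 98.4% of the STAT3koPD-1ko spleen against 81% and 71%. With 1 spleen library for each genotype, a difference between genotypes and one between libraries cannot be told apart. Without the STAT3ko libraries, same-genotype pairs of spleen and liver 1 stood 48.9 (TCRA) and 75 (TCRB) points above other pairs.

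Clonotypes shared by spleen and liver 1 kept part of their order. Log10 frequencies correlated at Pearson r = 0.543, 0.527 and 0.609 over the 7091, 6780 and 9312 shared TCRA clonotypes of WT, STAT3ko and STAT3koPD-1ko, and at 0.262, 0.26 and 0.27 over the 3329, 3329 and 3835 shared with liver 2. These are descriptions across clonotypes of a pair of libraries, and rare and frequent clonotypes share the limits of depth. In TCRB, the r was 0.502, 0.502 and 0.611 with liver 1 and 0.149–0.189 with liver 2. Of the 7554 TCRB clonotypes shared by the WT spleen and WT liver 1, 25.5% were over 4-fold higher in the liver and 10.7% over 4-fold lower. For STAT3koPD-1ko these shares were 13.6% and 10.1% of 10490, and for STAT3ko 25.7% and 8.37% of 7479. Of those shared with liver 2 of WT, STAT3ko and STAT3koPD-1ko, 27.3%, 27.5% and 20.2% were higher by this measure and 20.9%, 21.4% and 28.2% lower. Together, the clonotypes shared with liver 1 held 98.2%, 76.2% and 98.4% of the spleen and 84%, 86.8% and 86% of liver 1. The counts are therefore not read as a net gain of spleen clonotypes.

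Of the 100 most frequent TCRB clonotypes of the WT, STAT3ko and STAT3koPD-1ko spleen, 100, 87 and 100 were listed in liver 1 of their genotype, and 20, 16 and 23 of them were also among its 100 most frequent. Together they took 25.3%, 18.1% and 13.4% of the spleen and 5.97%, 5% and 4.39% of liver 1. In liver 2 of the same genotype 36, 40 and 44 were listed, with 0.705–1.39% of frequency. Livers 1 of other genotypes listed 22–36 of them. The 100 most frequent TCRB clonotypes of a liver 1 library were in turn listed in the spleen of the same genotype in 97–100 cases, at 7.16% ± 1.8 (SD, n = 3) of the spleen compared with 12.2% ± 3.67 of the liver. Since each set of 100 was chosen for its frequency in 1 library, its lower share in another is given as a description. In TCRA, 100, 84 and 99 of the leading spleen clonotypes were listed in liver 1, and 27, 23 and 39 were among its 100 most frequent.

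Spleen clonotypes that were also listed in livers of both other genotypes were shorter and closer to germline than those found only in livers of their own. For TCRB of the WT spleen, 1544 clonotypes were in livers of both other genotypes, held 24.6% of frequency and averaged 13 residues and 1.91 inserted nucleotides. The 4709 found only in WT livers held 53.5% and averaged 13.9 residues and 3.37 inserted nucleotides. The other spleen libraries gave 1.96 and 1.93 inserted nucleotides for the widely shared clonotypes, and 3.38 and 3.41 for those of their own genotype alone.

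Of the clonotypes listed in at least 6 of the 9 libraries, none of 3602 in TCRA (0%) and none of 1813 in TCRB (0%) differed between liver and spleen after correction in limma on log2(ppm + 10) (ppm of listed frequency), and 152 and 61 had an unadjusted p under 0.05. The median SE of a log2 difference was 0.963 and 0.982. The filter can be met by livers alone and not by spleens alone, so the balance of higher and lower clonotypes is not read. A chain of TRAV16N and TRAJ39, of the lowest p in TCRA, was listed at 0.00181%, 0 and 0.00157% of the WT, STAT3ko and STAT3koPD-1ko spleen and at 0.00743–0.0243% of the 6 livers, with a limma adjusted p of 0.935. It was followed by a chain of TRAV16N and TRAJ22, the segments of public chains A to C, at 0.00858%, 0 and 0 of the spleens and 0.00588–0.0337% of the livers. In TCRB, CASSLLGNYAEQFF (TRBV12-1, TRBJ2-1) took at most 0.00194% of a spleen library and 0.00929–0.0521% of the livers, and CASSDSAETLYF (TRBV13-1, TRBJ2-3) at most 0.0035% and 0.0151–0.149%. All 6 livers lay above all 3 spleens for these chains, except that STAT3ko liver 1 lay below the WT spleen for the chain of TRAV16N and TRAJ22. These 4 were named for their low p, and none passed (limma adjusted p = 0.955 in TCRB).

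Of the 1320 TCRA and 495 TCRB clonotypes listed in all 6 livers, 21 (1.59%) and 7 (1.41%) were listed in no spleen library. Of the 1307 TCRA clonotypes listed in all 3 spleens none was missing from every liver, and the same held in TCRB. The 6 livers are more libraries than the 3 spleens and list more clonotypes, so these counts are not read as gain and loss. Among the clonotypes in no spleen, 3 had the highest lowest frequency over the livers in TCRA. They were a chain of TRAV16N and TRAJ45, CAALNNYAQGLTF (TRAV4N-4, TRAJ26) and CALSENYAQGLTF (TRAV6-6, TRAJ26), at 0.00168–0.00629%, 0.00157–0.00733% and 0.00084–0.0189% of a liver library. In TCRB they were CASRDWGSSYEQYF (TRBV14, TRBJ2-7), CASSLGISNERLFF (TRBV12-2, TRBJ1-4) and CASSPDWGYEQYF (TRBV5, TRBJ2-7), at 0.00113–0.0162%. Of the clonotypes in all 9 libraries, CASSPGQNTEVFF (TRBV29, TRBJ1-1) and a chain of TRBV17 and TRBJ2-7 had the highest lowest frequencies in TCRB after YAEQFF, at 0.0592–0.316% and 0.0465–0.268%.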

How the data were processed

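RNA of sorted CD8+ T cells was made into TCR α and β libraries with the SMARTer mouse TCR a/b kit (Takara), sequenced on a MiSeq, and turned into clonotypes with MiXCR and joined with VDJtools by the authors; the submitters' processing notes name mm10. The deposited values are fractions, each the share of a library's reads held by a clonotype, computed before the join. A join keeps clonotypes of at least 2 of 18 libraries, of which 15 are in each table and 3 are not analysed here. Molecular identifiers are not mentioned, read totals are not given, and precision is therefore judged from the spread between libraries alone. The files' other columns give positions of V, D and J ends, in bases from the start of CDR3. Inserted nucleotides are bases between V, D and J ends and depend on the aligner's D match.

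Frequencies were divided by the listed share of their library. Segment usage was tested with limma 3.58.1 (R 4.3.3) on log2(percent + 0.1) for segments of mean usage of at least 0.5%, with genotype as covariate, and clonotypes on log2(ppm + 10). Rank-abundance and CDR3 measures were compared by exact permutation. P-values were adjusted by Benjamini-Hochberg at 0.05, and limma was tested on simulated data first. Liver libraries of a genotype are numbered but not said to come from separate transplants, and the methods mention 2 batches without tying them to numbers. Library numbers were checked for pairing: deviations of V and J usage from tissue means correlated between the spleen and liver 1 of a genotype at r = 0.271–0.908 in all 12 sets, and between the spleen and liver 2 at −0.41 to 0.687, so the numbers were taken to pair libraries. The main tests did not use this pairing. The limma fits held genotype alone as covariate, and the permutations over 84 splits treated all 9 libraries as exchangeable. In usage tests, the segments named were those called or, with fewer than 4 called, the 4 of lowest p. The clonotypes named were the most frequent of each library, the 3 with the highest lowest frequency over 9 libraries, the 3 with the highest lowest frequency in livers among those listed at 0 in spleens, and the 2 of lowest p. Members, lists and tests were chosen with earlier results of these data known. Segment positions are from GENCODE vM21 (GRCm38).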

Additional observations from a re-analysis of the deposited data

Results flagged for a closer look

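Among 38 sets of values over the 6 liver libraries (rank-abundance measures, CDR3 features and named segments), 1 held a library far from the others by Dixon's test, in which chance alone flags about 5% of sets. A cysteine inside the CDR3 was found in 0.538% of TCRA frequency in STAT3ko liver 2, against 0.0957–0.243% in the other 5 liver libraries. The gap was 0.667 of the whole range, above the critical value of 0.625.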

How the results depend on the processing

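Read totals are unknown, each genotype has 1 spleen library, and the libraries numbered 1 share clonotypes with the spleen, so the spread between libraries is the only measure of error. Of the values and counts that answer a comparison, 199 were of the same call or size under the alternatives, 7 moved, and 15 gained and 9 lost a call. The TCRA V count was 0 without the filter on usage, without genotype in the fit, with the replicate block, with each clonotype counted once and with clonotypes of at least 2 genotypes. In TCRB it was 1 with each clonotype counted once. The replicate block, in which the liver term is liver 1 minus spleen, changed no other call. With clonotypes of at least 2 genotypes, 5 of the 10 rank-abundance measures passed, and Shannon diversity was 0.82 (TCRA) and 1.02 (TCRB) higher in the liver on the log2 scale. With frequencies as deposited, 10 passed (0.71 and 0.69), and with labels permuted within genotype 10 passed (0.86 and 1.01). Clonotypes of at least 2 genotypes lowered the excess of same-genotype sharing with liver 1 to 32.5 points of the spleen and 36.5 of the liver (TCRA) and to 49.1 and 52.2 (TCRB), as the filter removes clonotypes private to a genotype; for TCRB of liver 2 in the spleen it was −1.74. The TCRB share of liver 1 in the spleen was 63.0 points above other pairs for frequencies above 1e-05 and 70.6 for clonotypes of at least 3 libraries. Leaving out 1 library at a time gave 0 to 2 V calls in either chain, 0 to 10 rank-abundance calls, and Shannon differences of 0.58 to 1.09 (TCRA) and 0.70 to 1.27 (TCRB).

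Some small differences changed sign, and the cause was not tested. With each clonotype counted once, the log2 difference was 0.0784 for TRAV7D-3, −0.0141 for TRAJ52, −0.0217 for TRAJ49 and 0.0377 for TRBJ1-5, and with clonotypes of at least 2 genotypes it was −0.0125 for TRBJ2-4. Among CDR3 features of TCRA, the liver minus spleen difference was −0.263 points (clonotypes counted once) and −0.208 (liver 1 alone) for short CDR3, −0.00448 points for inner cysteines (liver 1 alone), −0.000652 for charge (liver 2 alone) and 0.0395 for inserted nucleotides (counted once). In TCRB, clonotypes of at least 3 libraries gave −0.111 residues for length, 2.11 points for short CDR3, −0.241 for inner cysteines, −0.00266 for charge, −0.00907 for hydrophobic pairs and −0.240 inserted nucleotides. Liver 2 alone gave −0.00379 residues, 0.339 points of short CDR3 and −0.0175 inserted nucleotides, and all listed CDR3 gave −0.00585 residues. Hydrophobic pairs were at −0.0453 points with clonotypes counted once and at −0.0154 with at least 2 genotypes, where inserted nucleotides were at −0.00465. Leaving out 1 library gave −0.838 to 0.616 points for short TCRA CDR3, −0.353 to 0.324 for short TCRB CDR3, −0.0165 to 0.0138 for TCRA charge, −0.396 to 0.0698 points for TCRA hydrophobic pairs and −0.038 to 0.0352 inserted nucleotides in TCRB.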

Other observations

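D segment assignment was alike over the 9 TCRB libraries. TRBD1 was assigned to 39.9–42.6% of listed frequency, TRBD2 to 26.5–29.2% and no D segment to 29–31.8%, and for none of the 3 did the spleen libraries lie apart from the liver libraries.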
